A study of Bos taurus with 4 samples.

Results

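Transcripts of the actin and tubulin cytoskeleton were measured in bovine blastocysts that had been slow-frozen as morulae and in blastocysts that had never been frozen. The genes were chosen by symbol in the array's annotation: the actins and actin-related proteins, alpha-actinins, Arp2/3 subunits, capping proteins, cofilins and destrin, profilins, tropomyosins, myosin light chains, ezrin, radixin and moesin, and the alpha-, beta- and gamma-tubulins with the gamma-tubulin complex. They came to 75 of 15229 annotated symbols and had 111 of the 43794 probes on the array. Each gene was read from its brightest probe, and 59 of the genes had 1 probe only.

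Embryos of beef cattle were produced in vitro with frozen-thawed semen. Morulae of the slow-frozen group were equilibrated in glycerol, frozen in straws at a controlled rate, stored in liquid nitrogen, thawed and cultured on, while control morulae were cultured on without freezing; the labels mark the controls as cryopreserved too, which the protocol does not describe. Both groups were collected as expanded blastocysts, so only embryos that went on to expand were measured. Total RNA of 4 slow-frozen and 4 control pools, labelled as 7 embryos each at day 7 after fertilization, was amplified and hybridized in pairs to 4 two-colour arrays, with the slow-frozen pool in Cy5 on arrays 1 and 2 and in Cy3 on arrays 3 and 4. The methods state pool size as a range and would place collection later, and neither point can be settled from the files. A pooled sample cannot tell apart fewer cells of a type and less RNA per cell.

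Actin monomers assemble into filaments that the Arp2/3 complex branches, capping proteins end, cofilin and destrin take apart, and tropomyosins and myosin light chains fit out for contraction. Alpha- and beta-tubulin pair into the units of microtubules, whose growth starts on rings of gamma-tubulin. In the preimplantation embryo cortical actin and ezrin mark the outer, apical face of the cells during compaction, and actin rings brace the junctions of the trophectoderm, the epithelium that encloses the blastocoel. Chilling and cryoprotectants are known to disturb both filament systems at the protein level, which an array of transcripts does not measure.

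Of the 75 genes, 63 were above the negative control spots in all 8 pool readings and 5 in 4 to 7 readings (ACTA1, ACTN3, ACTR3B, TPM1 and MYL3). These 68 were tested. The other 7 reached the limit in at most 3 readings: the sarcomeric alpha-actinin ACTN2, the testis capping subunit CAPZA3, the myosin light chains MYL1, MYL2 and MYL10, and the beta-tubulins TUBB1 and TUBB4. Filtering on detection leaves a bound and not a level for these 7.

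No cytoskeleton gene differed between slow-frozen and control pools after adjustment. The limma fit with Benjamini-Hochberg adjustment over 30473 tested probes gave 0 of 68 genes at an adjusted p under 0.05, as it gave 0 of all probes and 0% of the 11831 tested genes, and the lowest adjusted p was 0.9999. At an unadjusted p under 0.05 there were 3 of the 68 genes (4.41%), against 1.91% of all tested genes. On the higher side this was ARPC1B (1.47%, against 0.904%), and on the lower side ACTR1B and ACTG2 (2.94%, against 1.01%). With mean in place of median spot signal, or with a trended and robust variance prior, 0 of 68 were under that p, with median centring 8 were, and with 1 array left out 1 to 13 were. At the study's thresholds for slow freezing, a fold of at least 1.5 with an unadjusted p under 0.05, there were 0 of 68, against 0.38% of all tested genes. With median centring there were 5, and with array 1, 2, 3 or 4 left out 3, 1, 3 and 7. The shares of 1.91% and 0.38% belong to the main fit. No such shares were taken under the other settings, so the counts there have no background beside them. A sign-flip test on 4 arrays cannot go below a two-sided p of 0.125. By the study's methods the pools of a treatment came from separate production cycles, which the labels do not identify.

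After loess the balance between higher and lower was close to even. Loess centres the ratios of probes of like brightness on 0, so this balance is in part set by the processing. The fitted log2 ratio of slow-frozen over control lay above 0 for 30 of 68 genes (44.1%), against 49% of all tested genes. With each array centred on its median in place of loess normalization, 12 of 68 lay above 0. The share of all tested genes above 0 was not taken in that setting. There the 68 genes had median ratios of -0.01, -0.05, -0.67 and -0.35 on arrays 1 to 4. All tested genes had -0.07, -0.01, -0.26 and -0.08, and the brightest 10% of them had 0.06, 0.21, -1.07 and -0.46. For the counts by role given below, the background after loess is the same 49%, and under median centring no share was taken. The median ratio of the 68 was -0.01 and that of all tested genes was -0.0035. Same-sign ratios on all 4 arrays were found for 6 genes (8.82%), against 7.54% of all tested genes: ARPC1A, ARPC1B and ACTR6 were higher in the slow-frozen pool each time (4.41%, against 3.52%), and ACTC1, ACTR1B and DSTN were lower (4.41%, against 4.01%). All 6 stayed on the same side of 0 in the fit with median centring. In 0 of 68 genes were the 4 slow-frozen levels clear of the 4 control levels, against 0.795% of all tested genes.

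The 95% interval of the fitted ratio lay within 2-fold in both directions for 61 of the 68 genes (89.7%), against 96.9% of all tested genes. It reached beyond 2-fold for ACTC1, ACTG2, ARPC1A, TPM2, MYL7, EZR and TUBB2C, so for these 7 a difference of more than 2-fold in at least 1 direction lay inside the interval; that of ACTG2 did not hold 0.

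**Figure D1:**
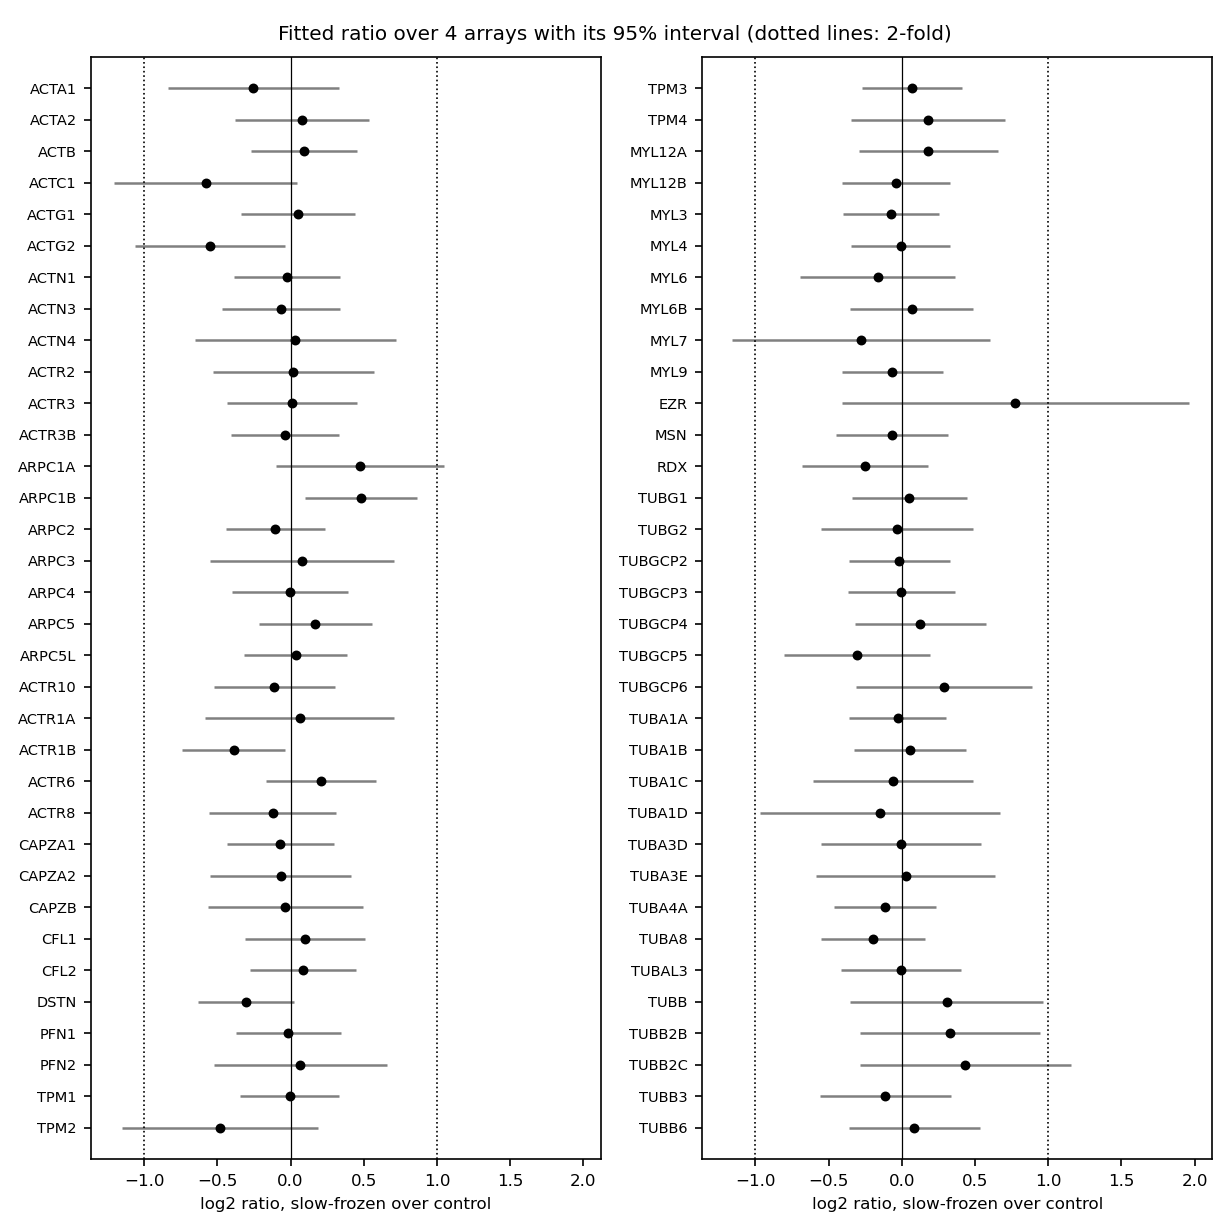
The points give the fitted log2 ratio of slow-frozen over control for each of the 68 tested genes (x axis) over 4 arrays, and the bars its 95% interval. The bars of 61 genes stay within the dotted 2-fold lines, and those of ARPC1B, ACTR1B and ACTG2 lie clear of 0 before adjustment.

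The larger differences lay within single pairs of pools. The range of the 4 array ratios exceeded 2 on the log2 scale in 6 of 68 genes (8.82%), against 3.4% of all tested genes. The SD of the ratios over the 68 genes was 0.451, 0.547, 0.67 and 0.394 on arrays 1 to 4, and over all tested genes it was 0.384, 0.419, 0.459 and 0.429. The cytoskeleton genes varied more than the background on arrays 1 to 3 and less on array 4. They were also read from brighter probes, with a median raw log2 signal of 10.7 against 8.59, and the part of brightness in this was not tested.

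The genes over 2-fold apart were mostly different from pair to pair, and EZR was the 1 gene on more than 1 array. On array 1 TPM4, MYL12A and EZR were over 2-fold higher in the slow-frozen pool (4.41%, against 0.685% of all tested genes). This held for the brightest probe of each only. On array 1 the other tested probes gave 0.50 and 0.24 for TPM4, 0.09, -0.07 and -0.26 for MYL12A, and 0.53 for EZR. On array 2, 5 genes were over 2-fold lower (7.35%, against 1.17%), namely ACTG2, MYL7, ACTC1, TPM2 and ACTN4. For TPM2 this held for the brightest probe only, and its other tested probes gave 0.41 and 0.09 on array 2. Other tested probes there gave -1.76 and -1.22 for MYL7 and -0.93 for ACTN4. On array 3, 10 genes were over 2-fold higher (14.7%, against 2.41%), of which 6 were tubulins (TUBB, TUBB2C, TUBA3E, TUBA1D, TUBB2B and TUBA3D) and the others EZR, ARPC1A, ACTR1A and ACTA2. On array 4 PFN2 alone was over 2-fold higher (1.47%, against 1.3%). None was over 2-fold lower on arrays 1, 3 or 4, and none higher on array 2. In 14 of these 19 differences both pools of the pair lay outside the range of the other pools of their group. The 19 were picked for a wide gap within the pair, so this count is in part set by that choice. No share of all tested genes picked in the same way was taken.

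The array 2 and array 3 sets differed in how they depended on normalization. The 5 genes of array 2 kept ratios between -1.93 and -1.08 when that array was centred on its median without loess, and 5 genes were again over 2-fold lower. Of the 10 genes of array 3, ratios without loess ran from 0.01 for TUBA3D to 1.49 for EZR, and 1 gene was over 2-fold higher. That gene was EZR, whose second, nearly as bright probe gave -0.24 on array 3 after loess. On array 3 the brightest 10% of all tested genes had a median ratio of -1.07 before the loess step, so the tubulin ratios given here are relative to probes of like brightness. Applying median centring to these counts on single arrays was decided after the data had been seen.

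**Figure D2:**
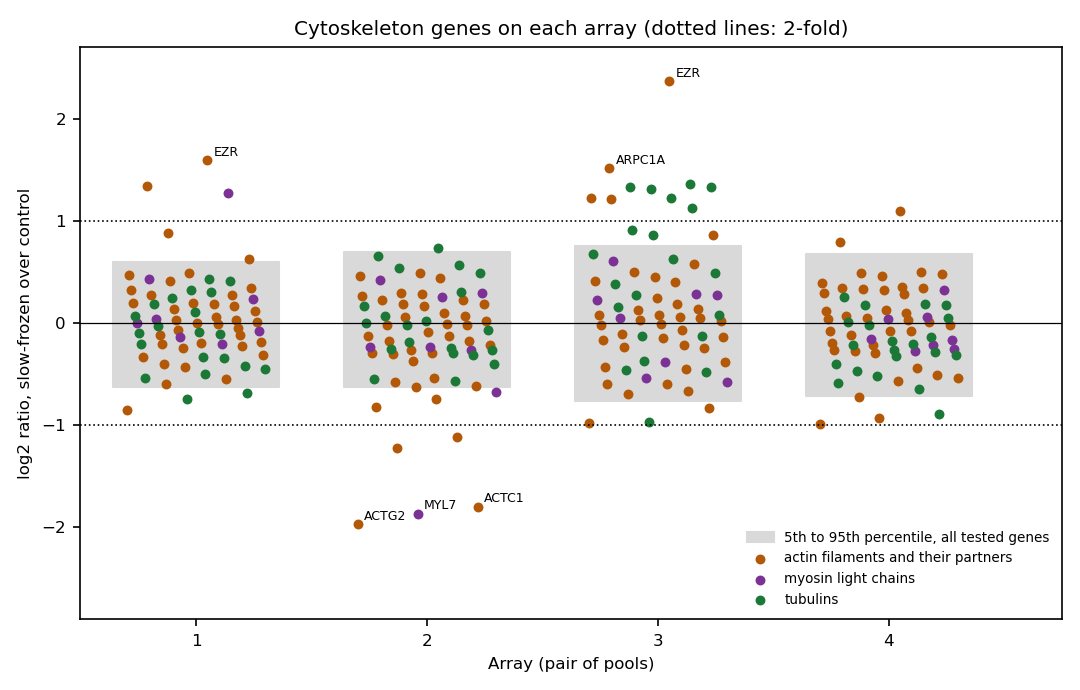
Each point is the log2 ratio of slow-frozen over control (y axis) of 1 of the 68 genes on an array (x axis), and grey bands span the 5th to 95th percentile of all tested genes. On array 2 the 5 genes below the lower dotted 2-fold line include ACTG2, MYL7 and ACTC1, and on array 3 the 10 genes above the upper line include 6 tubulins.

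Among the 6 actins, 3 had a fitted ratio above 0 and 3 below it, with a median of -0.10, and with median centring 0 of 6 lay above 0. The muscle-type isoforms had wider array ratios than the cytoplasmic ones. ACTB, one of the cytoplasmic actins that all cells build on, had log2 levels of 10.71, 10.43, 11.36 and 11.50 in the slow-frozen pools and 10.53, 10.61, 11.33 and 11.18 in the control pools of arrays 1 to 4. As far as normalization between arrays makes levels comparable, they differed more between pairs than within them, and its fitted ratio was 0.09 ± 0.15 (SE, n = 4 arrays). ACTG1, the other cytoplasmic actin, stood at 16, 16.02, 15.95 and 15.44 in slow-frozen pools and 15.73, 15.56, 15.91 and 16.01 in controls. The slow-frozen pool of array 4 was the low one, 3 of the 8 readings reached an intensity of 65000, near the scanner's upper limit, and the fitted ratio was 0.05 ± 0.16. Both cytoplasmic actins lay below 0 with median centring, at -0.21 for ACTB and -0.29 for ACTG1.

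ACTG2, the enteric smooth muscle actin, stood at 10.41, 9.94, 10.80 and 10.77 in slow-frozen pools and 11.26, 11.91, 10.30 and 10.66 in control pools. The slow-frozen pool was lower on arrays 1 and 2, with ratios of -0.85 and -1.97, and higher on arrays 3 and 4, with ratios of 0.50 and 0.12, so the groups overlapped. The fitted ratio was -0.55 ± 0.21 (unadjusted p = 0.0382, adjusted p = 0.9999 in limma). The same ratio had an unadjusted p of 0.172 in limma without the dye term, which takes up the opposite signs of the dye orientations, and without array 2 the ratio was -0.27 (unadjusted p = 0.223 in limma). Slow-frozen RNA was in Cy5 on the first pair of arrays and in Cy3 on the second, so the dye and the pools cannot be told apart here.

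ACTC1, the cardiac actin, stood at 10.71, 9.75, 10.51 and 10.41 in slow-frozen pools and 10.92, 11.55, 10.73 and 10.50 in controls. It was lower in the slow-frozen pool on all 4 arrays, but array 2 gave -1.80 and the others -0.21, -0.22 and -0.08, and the fitted ratio was -0.58 ± 0.26 (unadjusted p = 0.0641). Without array 2 the fitted ratio was -0.18. ACTA2, the vascular smooth muscle actin, had ratios of -0.41, -0.83, 1.21 and 0.34, opposite on the first and second dye orientation like those of ACTG2. The skeletal actin ACTA1, near the detection limit, had a fitted ratio of -0.25 ± 0.24. Actins share long coding stretches, and how far a probe of one also binds another was not tested.

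**Figure D3:**
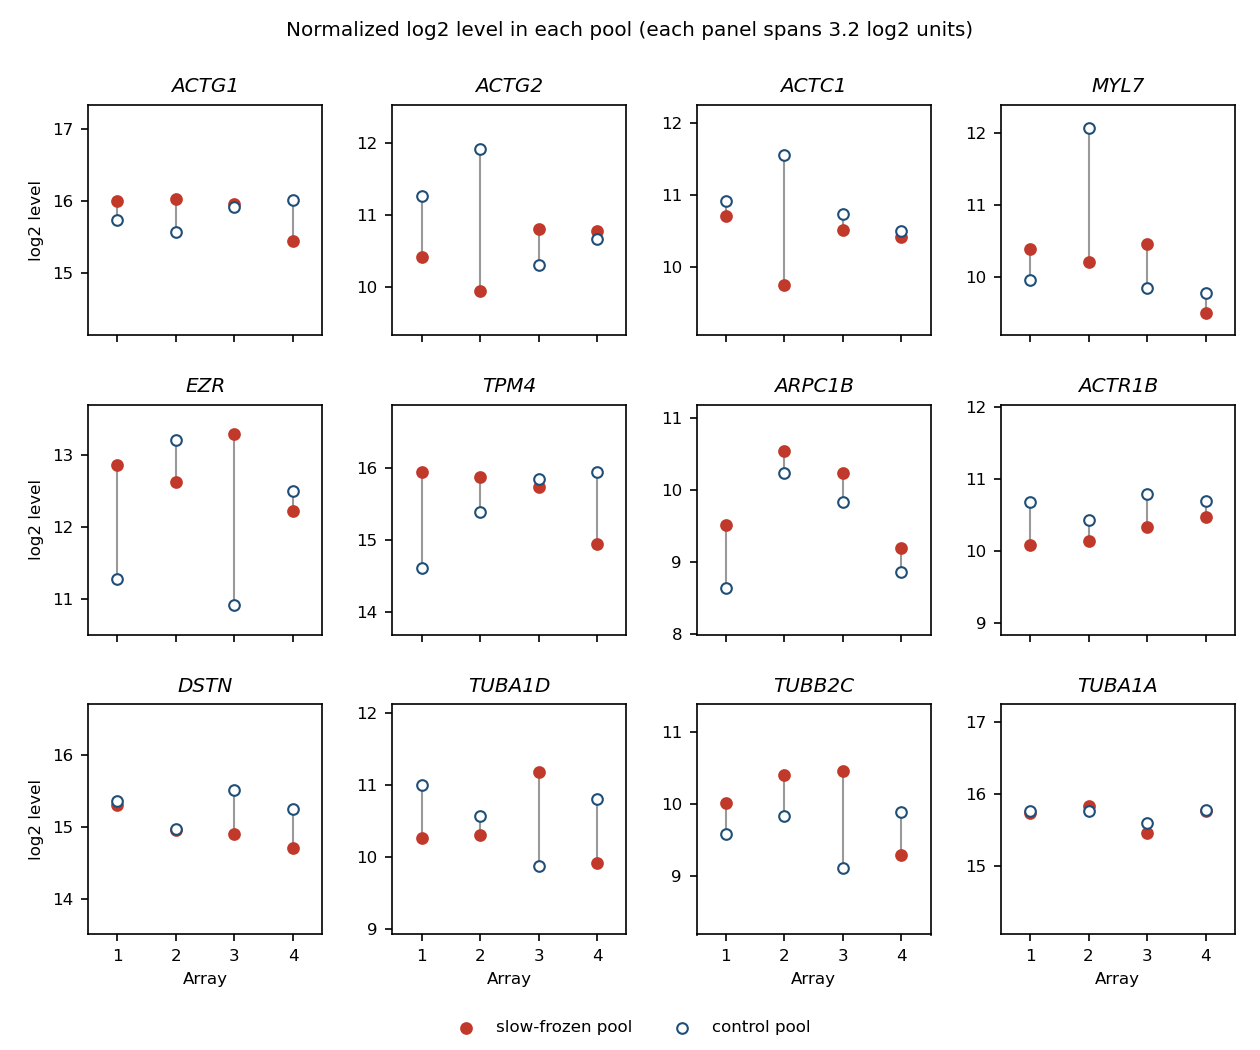
Normalized log2 level (y axis) of 12 genes in the slow-frozen (filled red) and control (open blue) pool of each array (x axis), joined by a line. On array 2 the control pool is the high one for ACTC1, ACTG2 and MYL7, and the slow-frozen pool is the low one of its group for ACTC1 and ACTG2. Both pools move together from array to array for ARPC1B, and the 4 TUBA1A ratios span 0.20.

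The Arp2/3 complex, which nucleates branched filaments, had 7 of 10 tested subunit genes above 0, against 49% of all tested genes, with a median ratio of 0.03. Under median centring 3 of 10 lay above 0, with a median of -0.17. In the main fit 1 was at an unadjusted p under 0.05 in limma, against 1.91% of all tested genes. ARPC1B, one of the alternative forms of the p41 subunit, stood at 9.52, 10.54, 10.24 and 9.20 in slow-frozen pools and 8.64, 10.24, 9.83 and 8.86 in controls. The slow-frozen pool was higher in each pair, by 0.88, 0.30, 0.41 and 0.34, and the fitted ratio was 0.48 ± 0.16 (unadjusted p = 0.0206, adjusted p = 0.9999). Both groups were high on arrays 2 and 3 and low on arrays 1 and 4, so the 4 slow-frozen and 4 control levels overlapped widely. With median centring the ratio was 0.26 (unadjusted p = 0.186 in limma), and without array 1 it was 0.34 (unadjusted p = 0.122 in limma).

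ARPC1A, the other form of that subunit, stood at 9.74, 9.82, 10.30 and 9.36 in slow-frozen pools and 9.63, 9.66, 8.78 and 9.26 in controls. Its ratios of 0.11, 0.17, 1.52 and 0.10 gave a fitted 0.47 ± 0.24 (unadjusted p = 0.0921), which was 0.12 without array 3, where the control was the lowest pool and the slow-frozen the highest. ACTR3, the subunit that forms the first step of the new branch with ACTR2, had ratios of 0.00, -0.02, -0.43 and 0.48 and a fitted ratio of 0.01 ± 0.19. ARPC3 differed by 0.86 on array 3 and by -0.73 on array 4. The remaining subunit genes (ACTR2, ACTR3B, ARPC2, ARPC4, ARPC5 and ARPC5L) had fitted ratios from -0.10 to 0.17.

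Outside Arp2/3, 2 of 5 actin-related proteins lay higher. ACTR1B, a dynactin filament subunit that serves microtubule transport, stood at 10.08, 10.14, 10.34 and 10.47 in slow-frozen pools and 10.68, 10.43, 10.79 and 10.69 in controls. Slow-frozen pools were lower in each pair, by -0.60, -0.29, -0.45 and -0.22 on the log2 scale, and the highest slow-frozen pool passed the lowest control pool, so the groups overlapped only at that edge. The fitted ratio was -0.39 ± 0.15 (unadjusted p = 0.0348, adjusted p = 0.9999). The p was above 0.05 without array 1, 2 or 3 in turn (0.155, 0.0567 and 0.127 in limma). Its partner in the dynactin filament, ACTR1A, was also lower on arrays 1, 2 and 4 and was higher on array 3, with ratios of -0.31, -0.21, 1.22 and -0.45, the array 3 ratio being 0.74 with median centring.

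ACTR8, a nuclear subunit of the INO80 chromatin remodeller, had a fitted ratio of -0.12 ± 0.18 with ratios of both signs. ACTR6, also a nuclear protein, was higher in each pair, but by as little as 0.02 and 0.01 on arrays 2 and 3. ACTR10, another dynactin protein, had a fitted ratio of -0.11 ± 0.17.

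The genes that end, cut and supply filaments had fitted ratios between -0.07 and 0.10 after loess, apart from DSTN. The capping proteins CAPZA1, CAPZA2 and CAPZB, which close the growing end, were all below 0 with fitted ratios of -0.07, -0.07 and -0.03, each smaller than its SE, and -0.39, -0.33 and -0.26 with median centring. CAPZA1 itself had ratios of -0.18, -0.30, -0.14 and 0.35. PFN1, the profilin that feeds monomers to growing ends, had a fitted ratio of -0.02 ± 0.15, or -0.32 with median centring, and PFN2 differed by 1.09 on array 4 only.

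DSTN (destrin), which severs filaments, stood at 15.31, 14.96, 14.91 and 14.71 in slow-frozen pools and 15.37, 14.98, 15.51 and 15.25 in controls. The pools were nearly equal on arrays 1 and 2, the first dye orientation. Slow-frozen pools were lower on arrays 3 and 4, the second, by -0.60 and -0.54. The fitted ratio was -0.30 ± 0.14 (unadjusted p = 0.0644 in limma). A second DSTN probe had a fitted ratio of -0.23. The related cofilins CFL1 and CFL2 had fitted ratios of 0.10 ± 0.17 and 0.09 ± 0.15, which became -0.24 and -0.14 with median centring, where DSTN was at -0.63.

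The crosslinking alpha-actinin ACTN1 had ratios of -0.23, 0.22, -0.07 and -0.02, and ACTN4 had 0.62, -1.11, 0.57 and 0.05. Both ACTN4 probes were lowest on array 2. The muscle alpha-actinin ACTN3 had a fitted ratio of -0.07 ± 0.17.

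Tropomyosins, which wind along filaments and govern which proteins bind, had 2 of 4 genes above 0, and 1 of 4 with median centring. TPM4, found outside muscle, stood at 15.95, 15.87, 15.74 and 14.95 in slow-frozen pools and 14.61, 15.39, 15.85 and 15.94 in controls. The lowest control was on array 1 and the lowest slow-frozen pool on array 4, and its ratios ran from 1.34 to -0.99. They were above 0 on arrays 1 and 2 and below 0 on arrays 3 and 4, opposite on the first and second dye orientation. Every Cy5 level lay above every Cy3 level, so dye and pools cannot be told apart for this probe. Of its readings 1 reached 65000, and the fitted ratio was 0.18 ± 0.22, or -0.17 with median centring. TPM2, an isoform named for muscle, stood at 8.84, 7.88, 8.39 and 9.90 against 8.85, 9.11, 9.38 and 9.61, and was lower in the slow-frozen pool by -1.22 on array 2 and by -0.98 on array 3. Its fitted ratio was -0.48 ± 0.28 (unadjusted p = 0.132). TPM1 and TPM3 had fitted ratios of -0.01 and 0.07.

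Of the myosin light chains, 2 of 8 tested genes lay higher and the median ratio was -0.05. MYL7, the atrial regulatory chain, stood at 10.40, 10.22, 10.46 and 9.51 in slow-frozen pools and 9.97, 12.08, 9.85 and 9.79 in controls. The control pool of array 2 stood apart from the other 7 pools, and its ratio there was -1.87 against 0.43, 0.61 and -0.27 elsewhere. All 3 MYL7 probes had their lowest ratio on array 2. The same pool was the highest control for ACTG2, ACTC1 and ACTN4, and its slow-frozen partner was the lowest of its group for these genes. The fitted ratio of MYL7 was -0.28 ± 0.37.

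MYL12A, a non-muscle regulatory chain that is phosphorylated to start contraction, stood at 15.42, 15.86, 15.19 and 15.68 in slow-frozen pools and 14.15, 15.57, 15.77 and 15.94 in controls. As with the brightest TPM4 probe, the control pool of array 1 was the low one for this probe, with a ratio of 1.27. The ratios on the other arrays were 0.29, -0.58 and -0.26, so they too were opposite on the first and second dye orientation. The other tested MYL12A probes did not share the low array 1 control, with array 1 ratios of 0.09, -0.07 and -0.26. MYL6, the non-muscle essential chain, had ratios of 0.24, -0.68, -0.54 and 0.32. MYL12B and MYL9, further regulatory chains, had fitted ratios of -0.04 ± 0.15 and -0.06 ± 0.14, and MYL3, MYL4 and MYL6B lay between -0.07 and 0.07.

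Ezrin, radixin and moesin tie actin to the plasma membrane, and EZR had the widest range of any gene here. It stood at 12.87, 12.63, 13.29 and 12.23 in slow-frozen pools and 11.28, 13.21, 10.92 and 12.50 in controls. Control pools of arrays 1 and 3 were the low ones, the slow-frozen pools varied less, and the ratios of 1.59, -0.58, 2.36 and -0.27 gave a fitted 0.78 ± 0.49 (unadjusted p = 0.162 in limma). The fitted ratio was 0.23 without array 1, 0.12 without array 3 and 0.36 as the mean of the gene's probes. RDX was lower in the slow-frozen pool on array 3, by -0.84, and near 0 on the others, with a fitted ratio of -0.25 ± 0.18. MSN had ratios of -0.55, -0.75, 0.24 and 0.79, opposite on the first and second dye orientation.

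On array 3, 6 of the 9 tested alpha-tubulins were higher in the slow-frozen pool. The median ratio of these 9 genes was -0.45 on array 1, -0.24 on array 2, 0.62 on array 3 and -0.14 on array 4, and the median of their fitted ratios was -0.03, with 2 of 9 higher, or 0 of 9 with median centring. TUBA1D stood at 10.26, 10.30, 11.18 and 9.92 in slow-frozen pools and 11, 10.57, 9.87 and 10.81 in controls. On array 3 the slow-frozen pool was the highest of its group and the control the lowest of its group, and on the other arrays the slow-frozen pool was the lower, so the fitted ratio was -0.15 ± 0.34. The same holds for TUBA3D and TUBA3E on array 3.

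TUBA1A stood at 15.73, 15.83, 15.46 and 15.76 in slow-frozen pools and 15.76, 15.76, 15.59 and 15.78 in controls, so that its 4 ratios spanned only 0.20 and the fitted ratio was -0.03 ± 0.14, or -0.36 with median centring. TUBA8 and TUBAL3 likewise had no higher slow-frozen level on array 3, with ratios of -0.13 and -0.48 there. Alpha-tubulin genes are close in sequence, and the separateness of their probes was not tested.

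Beta-tubulins lay higher in 4 of 5 tested genes, against 49% of all tested genes, with a median fitted ratio of 0.31. By array the medians were 0.25, 0.30, 1.22 and -0.28. With median centring 3 of 5 lay higher, with a median of 0.03. TUBB2C, whose current symbol is TUBB4B, stood at 10.01, 10.40, 10.46 and 9.30 in slow-frozen pools and 9.58, 9.84, 9.12 and 9.89 in controls. It was higher when slow-frozen on arrays 1 to 3 and lower on array 4, by -0.59, and the fitted ratio was 0.43 ± 0.30 (unadjusted p = 0.195). TUBB2B had ratios of -0.20, 0.49, 1.22 and -0.18 and a fitted ratio of 0.33 ± 0.26, and TUBB had a fitted ratio of 0.31 ± 0.27. Without array 3 the fitted ratios of TUBB, TUBB2B and TUBB2C were -0.11, -0.02 and -0.05. The neuronal TUBB3 was at -0.11 ± 0.19 and TUBB6 at 0.09 ± 0.19. With loess left out, TUBB, TUBB2B and TUBB2C had ratios of 0.61, 0.43 and 0.77 on array 3. The separateness of the beta-tubulin probes was not tested either.

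Of gamma-tubulin and its ring proteins, 3 of 7 lay higher, and 1 of 7 with median centring. TUBG1, which nucleates microtubules, had ratios of 0.10, -0.00, 0.38 and -0.27 and a fitted ratio of 0.05 ± 0.16. TUBGCP5, a ring subunit, had ratios of -0.42, 0.16, -0.97 and 0.01 and a fitted ratio of -0.31 ± 0.21, and TUBGCP6, another, had a fitted ratio of 0.29 ± 0.25. TUBG2, TUBGCP2, TUBGCP3 and TUBGCP4 lay between -0.03 and 0.13.

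**Figure D4:**
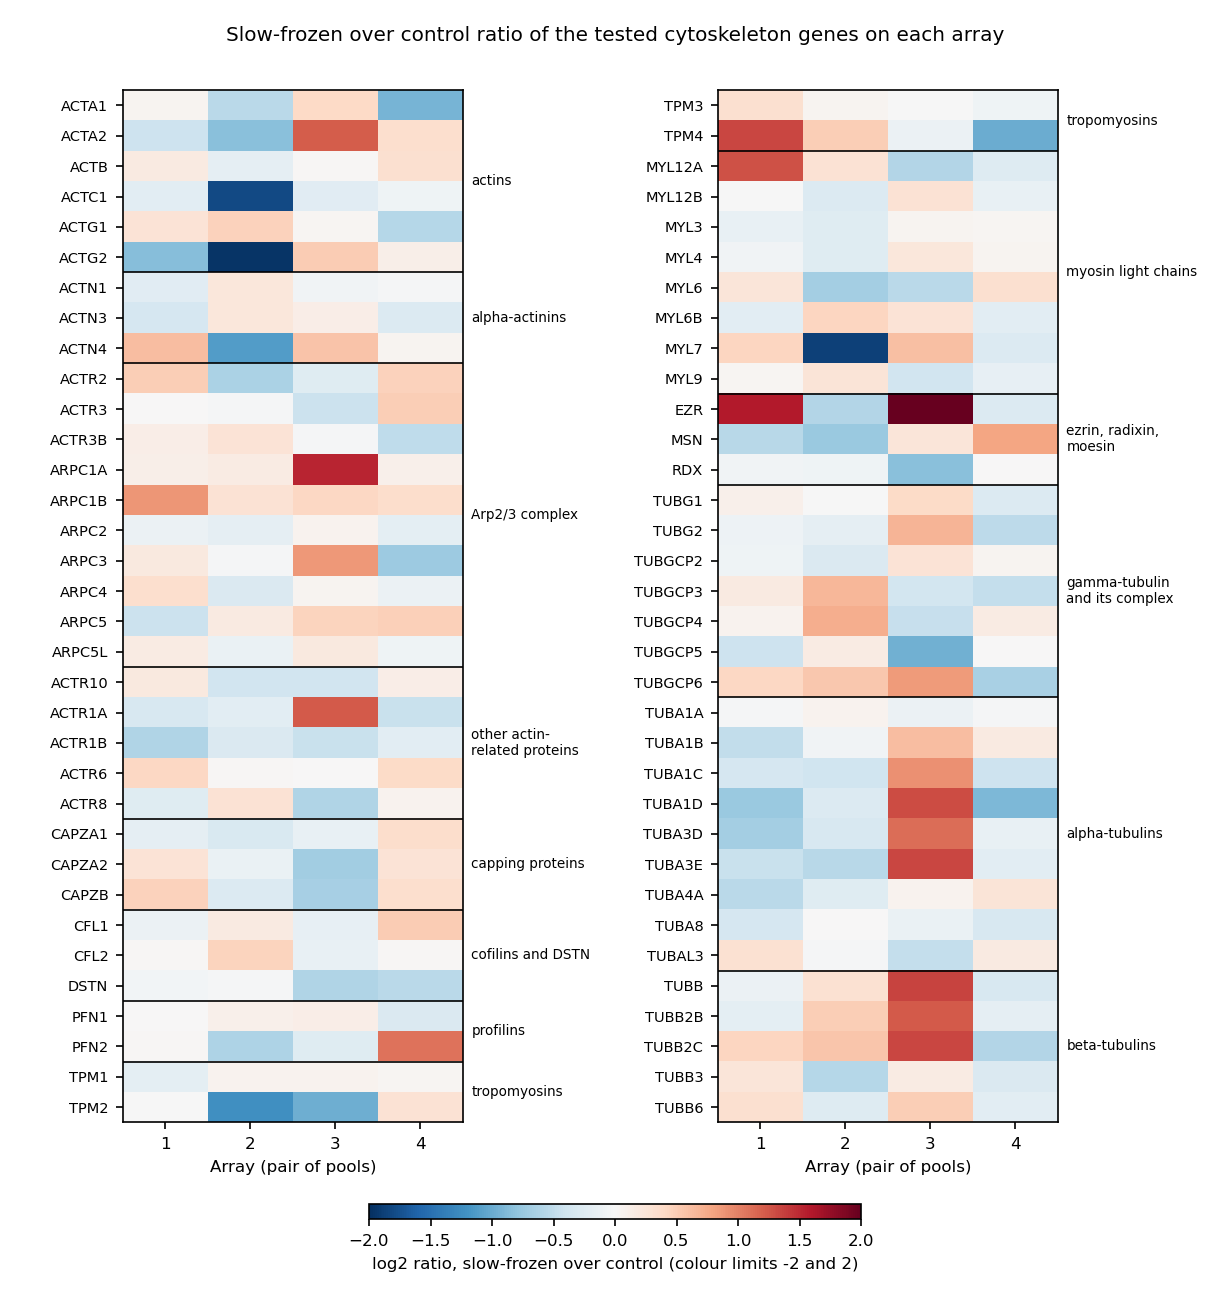
Log2 ratio of slow-frozen over control on each array (columns) for the 68 tested genes (rows, by role), with red for higher and blue for lower in the slow-frozen pool. Of 9 alpha-tubulins 6 are red on array 3, the muscle actins ACTC1 and ACTG2 and MYL7 are dark blue on array 2, and few rows keep 1 colour.

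The ratios of different arrays had little in common over these genes. Pearson's r over the 68 genes was 0.156 between arrays 1 and 2 and -0.325 between arrays 3 and 4, the pairs of like dye orientation, and between -0.23 and -0.013 for the other pairs. Over all tested probes the like-oriented pairs gave 0.015 and -0.211, and the other pairs lay between -0.278 and 0.038. These are descriptions across genes, which are not independent replicates.

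Probes for one gene often disagreed in sign. Of 15 genes with more than 1 tested probe, 4 had probes of a single sign (DSTN, MYL7, PFN1 and TUBB2B) and 11 had both signs, with a median spread of 0.208 between their fitted ratios. EZR had a second, nearly as bright probe at -0.06, which gave -0.24 on array 3 where the brightest gave 2.36. RDX ran from -0.25 for its brightest probe to 0.31, and TPM2 from -0.48 for its brightest to 0.16. The 11 MYL6 probes ran from -0.17 to 0.42, and the 5 brightest were all below 0 while the 6 dimmer ones were all above it. Whether these probes read different transcripts was not tested.

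**Figure D5:**
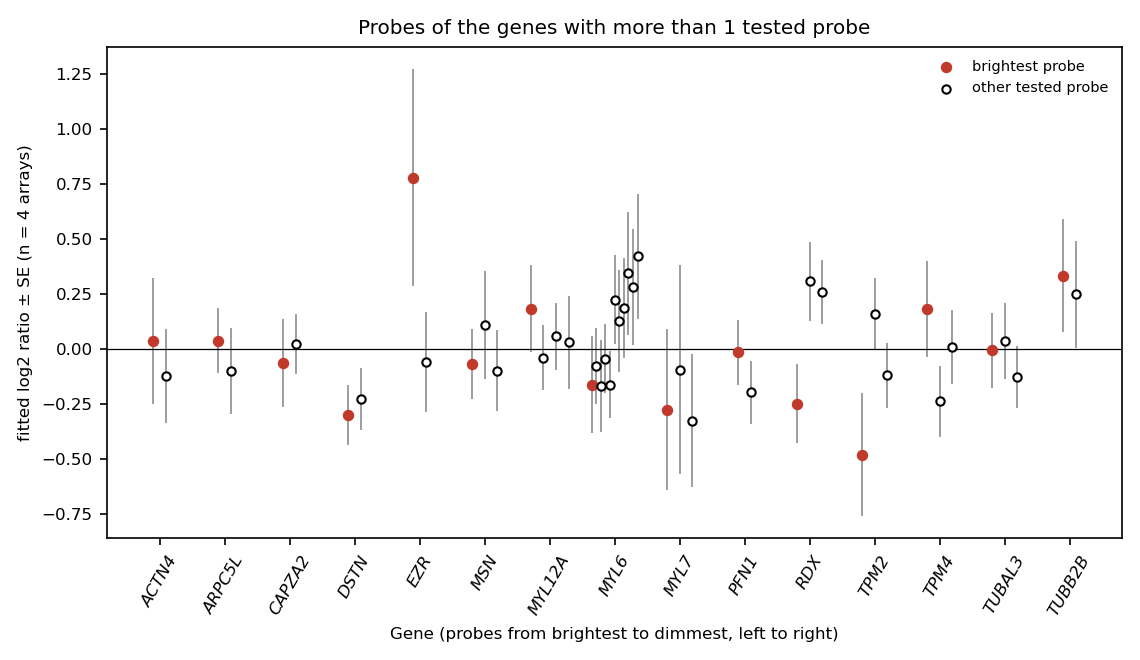
Fitted log2 ratio with its SE over 4 arrays (y axis) for each tested probe of the 15 genes with more than 1 (x axis), from the brightest (red) to the dimmest. The EZR, RDX and TPM2 probes lie on both sides of 0, and the MYL6 probes pass from below to above 0 as they get dimmer.

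The proteins around these filaments gave no adjusted difference either, with 0 genes at an adjusted p under 0.05 in any of 6 lists of related genes. Among nucleators and WAVE, WASP and formin proteins 8 of 23 tested genes lay higher, against 49% of all tested genes, and 2 were at an unadjusted p under 0.05, against 1.91%. WASF1, a WAVE protein that switches on Arp2/3, had a fitted ratio of -0.54 ± 0.20, and ABI1, of the same regulatory complex, 0.37 ± 0.14. Among binding, severing and crosslinking proteins 27 of 47 lay higher, with the same 49% as background here and in the lists that follow. FSCN1, the fascin that bundles filaments, was higher in each pair (0.53, 0.50, 0.26 and 0.42; unadjusted p = 0.0189 in limma, adjusted p = 0.9999), and the talin TLN2, which links integrins to actin, was lower in each (-0.58, -0.45, -0.19 and -0.39; unadjusted p = 0.0258 in limma, adjusted p = 0.9999).

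Of the myosin heavy chains 15 of 21 lay higher, led by the membrane-bound myosins MYO1E at 0.45 ± 0.17 and MYO1D at 0.36 ± 0.15. Chaperones and cofactors that fold actin and tubulin were higher in 13 of 23, with TBCEL, a tubulin cofactor-like protein, at -0.40 ± 0.17 and the phosducin-like PDCL at 0.25 ± 0.17. Microtubule binding and severing proteins were higher in 19 of 47, with FIGNL1, a fidgetin-like ATPase, at -0.37 ± 0.15 and the centrosomal TACC2 at 0.41 ± 0.18. For the transcription factors SRF and MRTF, with their partners and targets, 4 of 10 lay higher, and the smallest p-values belonged to ELK1 at 0.16 ± 0.14 and VCL at -0.13 ± 0.15. The medians of these lists lay between -0.04 and 0.06.

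Markers of the labelled stage were present: 9 of 9 trophectoderm genes were detected in all 8 readings, and their summed linear level ran from 91583 to 132400 in slow-frozen and from 95856 to 154850 in control pools. The highest of these sums was in the control pool of array 2 and the lowest in the slow-frozen pool of array 4. The sum weighs bright genes most, here KRT8, KRT18 and IFNT, and 2 KRT8 readings reached 65000. In the control pool of array 2 IFNT (15.72) and KRT18 (15.49) were at their highest control level and KRT8 (15.32) at its lowest. In the fit 6 of the 9 lay higher, and IFNT was the lowest at -0.84 ± 0.37. Of 5 inner cell mass genes 3 were detected in all 8 readings and the sum of the 5 ran from 6350 to 11128 in slow-frozen and 3804 to 8182 in control pools. All 5 lay higher in the fit, against 49% of all tested genes, with a median ratio of 0.38, and 0 passed adjustment. The inner cell mass sum was lowest in the control pools and highest in the slow-frozen pools of arrays 2 and 3. It weighs bright genes most, and POU5F1 and NANOG were the brightest of the 5. LIN28B differed, with its highest control level, 8.16, on array 3. NANOG had ratios of -2.18, 3.24, 2.59 and -0.39. Hypoblast sums were 1620 to 5737 and 2239 to 4202, with SOX17 in 3 of 8 readings.

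Markers of other cells that the pools could hold were read in the same way. Of 16 cumulus and granulosa genes 5 were detected in all 8 readings, AMH was in 0 of 8, and the sums were 5287 to 7105 in slow-frozen and 6077 to 6929 in control pools. Sperm genes summed to 875 to 964 and 799 to 942, with 1 of 5 (ODF2) detected throughout, and leukocyte and blood genes to 1494 to 1845 and 1451 to 1689, with 3 of 6. Undetected probes count in these sums and still hold a level. Undetected AMH had a mean log2 level of 6.76 in slow-frozen and 6.64 in control pools. The sums are therefore in part background and do not measure marker RNA alone. The part of cell make-up in the differences between pools was not tested.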

How the data were processed

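RNA of 4 slow-frozen and 4 control pools was amplified, labelled with Cy3 or Cy5 and compared in pairs on 4 EmbryoGENE arrays. The authors deposited scanner files with median spot and background intensity per channel, uncorrected, and a value table on a log2 scale. In the paper's methods spot background was subtracted, dyes were balanced by lowess and arrays were brought together by quantiles; how that table arose is not stated. Its column medians were -0.0023, 0.00051, -0.0023 and 0.0017, and across probes it correlated with log2 Cy5 over Cy3 at 0.993, 0.985, 0.938 and 0.972. It was therefore taken to hold centred log2 dye ratios, with no direction of treatment. In all, 0 of its columns were left unused.

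Here intensities were corrected by normexp (offset 50) and normalized by loess within arrays, giving control spots no weight (limma 3.58.1, R 4.3.3). For detection, background-subtracted signal had to pass the 95th percentile of the channel's 153 negative controls, a limit that ran from 44.8 to 173.8. Probes with at least 4 of 8 detected readings were tested. Ratios turned to slow-frozen over control were fitted with treatment and dye terms, eBayes and Benjamini-Hochberg adjustment over 30473 probes. Each SE is the moderated error of the treatment term. Because the dye term absorbs the difference between orientations, this error may understate the spread of the 4 ratios. Levels are log2 channel values after loess and quantile normalization of the average intensity across arrays. The number of arrays limits the precision.

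Symbols came from the platform annotation; 73 of the 75 were matched to the RefSeq genes of ARS-UCD2.0, from which 1 current symbol was taken and no coordinate. The genes and lists were chosen with earlier results of these data known. Genes named with full values were the brightest tested gene of each role, the 10 smallest unadjusted p-values, the 5 widest ranges of the 4 ratios, ACTG2, 2 genes per related list, and genes whose probes differed in sign and by over 0.5. Others named were chosen after their values were seen. The result of 1 further list of related genes is not reported here. The fit was tested on simulated data. Alternatives covered background correction, normalization, detection filter, variance moderation, the deposited table, mean spot signal, means over probes, no dye term, either dye orientation alone, and leaving out each array in turn. Figures were drawn with matplotlib 3.10.9.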

Additional observations from a re-analysis of the deposited data

Results flagged for a closer look

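In 6 of 75 groups of 4 values examined for the named genes, 1 value stood apart from the other 3 by Dixon's criterion at 95%, and chance flags about 1 in 20 groups. These genes were named partly for wide ranges and small p-values, and the groups of a gene share readings, so this count cannot be set against that rate. The log2 ratio of ACTC1 on array 2 was -1.7992, against -0.2205 to -0.0849 on the others. The control level of MYL7 on array 2 was 12.08, against 9.79 to 9.97, the pool in which the actins ACTC1 and ACTG2 were also at their highest control level. For these actins the slow-frozen pool of array 2 was also the lowest of its group. The ratio of ARPC1A on array 3 was 1.5167, against 0.0967 to 0.165. The ratio of RDX on array 3 was -0.8386, against -0.0925 to 0.0034. The slow-frozen level of ACTG1 on array 4 was 15.44, against 15.95 to 16.02, with 3 of the gene's 8 readings at or above an intensity of 65000. The control level of TUBA1A on array 3 was 15.59, against 15.76 to 15.78.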

How the results depend on the processing

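The count of cytoskeleton genes passing adjustment was 0 under each alternative run. Among all probes it was 0, and with 1 array left out it ranged from 0 to 1, the 1 arising without array 3 and without array 4 and belonging to no cytoskeleton gene. The count at 1.5-fold with an unadjusted p under 0.05 rose from 0 to 5 (ACTC1, ACTG2, ACTR1B, DSTN and TPM2) with median centring in place of loess, and leaving out 1 array gave 1 to 7: 3 without array 1 (ACTC1, ACTG2 and MYL7), 1 without array 2 (ARPC1B), 3 without array 3 (ACTA1, ACTG2 and TUBA1D) and 7 without array 4 (ARPC1A, EZR, TPM2, TUBB, TUBB2B, TUBB2C and TUBGCP6). At an unadjusted p under 0.05 alone the count of 3 became 8 with median centring, 0 with mean spot signal, 0 with a trended and robust variance prior, 2 to 4 under the other alternatives on 4 arrays, and 1 to 13 with 1 array left out, the lowest without array 2 and the highest without array 4. The number of genes lying higher went from 30 to 12 with median centring and ranged from 22 to 39 with 1 array left out, and the median ratio went from -0.01 to -0.243 and from -0.052 to 0.039. Median centring put the median of all probes at -0.081, against 0.002, and changed the sign of 26 of 68 genes. Under these alternatives no shares of all tested genes were taken for the counts by p or for the number lying higher. It also took the number of genes over 2-fold higher on array 3 from 10 to 1, a use of it chosen after seeing the data, while 9 to 11 were found under the other settings tried and 4 to 5 genes were over 2-fold lower on array 2 under every one. Within arrays 3 and 4 the ACTG2 ratio was 0.308. The ratio within an array already pairs its pools. With 4 arrays, the intervals of 7 genes reached beyond 2-fold, and ACTG1 and TPM4 had readings near the scanner's upper limit.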
